A study of Mus musculus with 141 samples.

Results

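A set of genes of the airway secretory epithelium was followed through every cell: *Scgb1a1*, *Scgb3a1*, *Scgb3a2*, *Bpifa1*, *Bpifb1*, *Muc5b*, *Muc1* and *Pigr*. These are 8 of the 17136 genes counted, and they were taken by name. The counts came from single cells of the lungs of 1 male mouse, 4 months old and labelled as strain 129SV (129S6/SvEvTac background in the methods of the study). The mouse had the genotype *ACID;R26tdTomato*, in which Cre recombinase made from the *Aqp5* locus switches on the red reporter tdTomato for good, so that a cell can be red without making *Aqp5* at the time of sorting. Dissociated cells were sorted as CD31- CD45- E-cadherin+ tdTomato+ and captured on a Fluidigm C1 HT chip, where cells sit in numbered columns and rows and are lysed and copied singly. All cells therefore share 1 animal, 1 genotype and 1 sort, no untreated or tdTomato-negative group was analysed here, and cells were not treated as replicates. No p-value was computed, and intervals cover counting error only, of reads or of cells, not the variation between mice.

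Cells were classed by 2 alveolar genes. A type 1 cell had *Ager* at 5000 CPM or more (reads of the gene scaled to the total reads of the cell), and a type 2 cell had *Sftpc* at 8000 CPM or more. These cuts gave 64 type 1 cells, 27 type 2 cells and 50 cells outside both classes, here called the rest, and no cell met both. The cells next to the cuts had *Ager* at 4696 and 5678 CPM and *Sftpc* at 7774 and 8718 CPM. Total reads per cell ran from 91402 to 2170760, with a median of 419970, and 92 cells had less than 0.15 of their reads on mitochondrial genes. All cells carry the submitters' label of alveolar type 1, and 64 of them had *Ager* at the class cut. Within the rest, 16 cells had at least 4 of 10 club cell markers at 100 CPM or more, and more of them than of basal or ciliated markers, and are called club-marker cells. None of the 8 genes is among those markers. The cut ran through a dense range, because 23 of the 50 rest cells had 3 or 4 of the 10 markers.

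The conducting airways are lined by club, goblet, ciliated and basal cells, while the alveoli are lined by flat type 1 cells and surfactant-making type 2 cells. Club cells release small secretoglobin proteins into the airway fluid, and secretory cells add BPI-fold proteins, which act against microbes, and gel-forming mucins that trap particles. *Pigr* encodes the receptor that carries polymeric immunoglobulins across the epithelium, and *Muc1* encodes a mucin that stays anchored in the apical membrane.

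The 250 bases before the RefSeq start site are shown for *Scgb3a1*, *Bpifa1* and *Bpifb1*, because these genes were high in the same cells or parted from each other in single cells, as described further on. They are from GRCm38.p6 and on the plus strand, at chr11:49663345-49663594, chr2:154142630-154142879 and chr2:154190568-154190817, and capitals mark the motif matches. RefSeq gives *Bpifb1* another start site, whose window at chr2:154200130-154200379 holds none of the motifs searched and is not printed.
Scgb3a1: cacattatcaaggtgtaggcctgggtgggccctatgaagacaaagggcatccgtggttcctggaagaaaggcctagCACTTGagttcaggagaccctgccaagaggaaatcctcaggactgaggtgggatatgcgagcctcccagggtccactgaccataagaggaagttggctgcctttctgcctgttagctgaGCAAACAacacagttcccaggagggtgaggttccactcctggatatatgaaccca
Bpifa1: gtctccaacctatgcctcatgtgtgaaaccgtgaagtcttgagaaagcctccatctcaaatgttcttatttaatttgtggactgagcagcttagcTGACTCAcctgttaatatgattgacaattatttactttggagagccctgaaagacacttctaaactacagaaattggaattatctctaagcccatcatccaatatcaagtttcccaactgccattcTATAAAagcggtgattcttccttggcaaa
Bpifb1: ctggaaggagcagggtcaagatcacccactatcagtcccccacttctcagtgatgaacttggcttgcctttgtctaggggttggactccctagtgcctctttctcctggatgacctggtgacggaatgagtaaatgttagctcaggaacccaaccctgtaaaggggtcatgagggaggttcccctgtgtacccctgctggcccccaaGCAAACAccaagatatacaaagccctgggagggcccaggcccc
*Scgb3a1* and *Bpifb1* both hold the forkhead (FOXA) letters TGTTTNC on the opposite strand, beginning at -55 and -43 from the start site. *Scgb3a1* also holds the NKX2-1 letters CAAGTG on the opposite strand at -174. *Bpifa1* holds the TATA letters TATAAA at -29 and the AP-1 letters TGANTCA at -155 instead. The windows of *Muc1* and *Pigr* were also searched and are not printed. *Muc1* holds the TATA letters at -31. *Pigr*, which was high in the cells high in *Scgb3a1* and also in some cells without it, holds none of the motifs. Of 32851 RefSeq promoter windows of 250 bases, 17.8% hold the FOXA letters, 11.6% the NKX2-1 letters and 6.75% the AP-1 letters on either strand, and 7.59% hold the TATA letters on the given strand. The matches describe the letters and are not shown to be bound.

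On the GRCm38 build, *Scgb1a1* lies on the minus strand of chromosome 19 (9083636 to 9087958), *Scgb3a1* on chromosome 11 (49663610 to 49665118) and *Scgb3a2* on chromosome 18 (43764289 to 43767399). *Bpifa1* (154142880 to 154149219) and *Bpifb1* (154190818 to 154220369) are neighbours on chromosome 2, with 41.6 kb between them. *Muc5b* lies on chromosome 7 (141839070 to 141873084), *Muc1* on chromosome 3 (89229057 to 89233381) and *Pigr* on chromosome 1 (130826684 to 130852249), all protein-coding genes in GENCODE.

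*Scgb1a1* encodes the club cell secretory protein, and its level split the cells with a wide gap. In 13 cells it lay between 164531 and 420133 CPM with a median of 311122 CPM, which is 16.5% to 42.01% of all reads of a cell. The next cell had 41995 CPM. All 13 were in the rest, 12 were club-marker cells and 12 were under the mitochondrial limit, and they are called *Scgb1a1*-high cells from here on. This cut at 100000 CPM was set in the gap after the values had been seen, so the *Scgb1a1* level of these cells is a description.

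The 13 cells held nearly all reads of 7 of the 8 genes or most of them. They had 98% of the *Scgb1a1* reads, 99.2% of *Scgb3a1*, 94.9% of *Scgb3a2*, 98.5% of *Bpifa1*, 98.7% of *Bpifb1*, 98.8% of *Muc5b* and 87.2% of *Pigr* reads. *Muc1* was the exception, with 37.3% of its reads in these cells and 40.01% in type 2 cells. Cells with *Scgb1a1* at 10000 CPM or more made up 16 of the 50 rest cells (32%, Clopper-Pearson 95% interval 19.5 to 46.7).

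**Figure D1:**
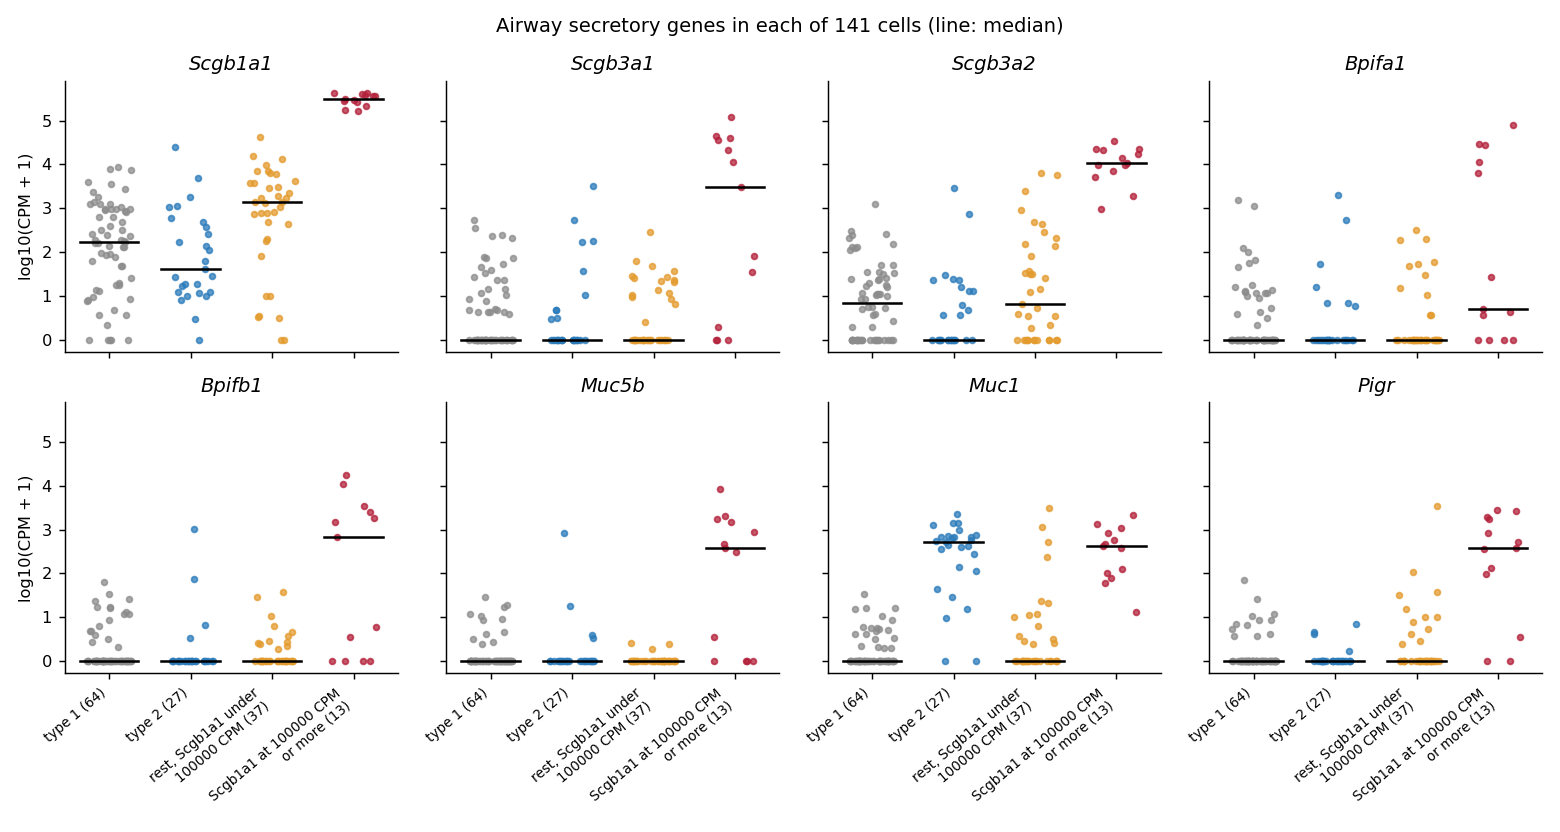
Level of each of the 8 genes in every cell as log10(CPM + 1), in 64 type 1 cells, 27 type 2 cells, 37 rest cells with *Scgb1a1* under 100000 CPM and 13 cells above it; each point is a cell and the line is the median. The 13 cells stand apart for *Scgb1a1*, spread from 0 to high levels for *Scgb3a1*, *Bpifa1*, *Bpifb1* and *Muc5b*, and share their range of *Muc1* with type 2 cells.

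The other secretoglobins behaved differently from each other in the 13 cells. *Scgb3a2*, a club cell secretoglobin, was at 100 CPM or more in 13 of 13 cells, from 963 to 33956 CPM with a median of 11086 CPM. *Scgb3a1*, a secretoglobin of secretory cells of the larger airways, was at 3126 to 122643 CPM in 7 cells and at 0 to 80.6 CPM in the other 6. In column 3 row 23 its 116139 reads were 46.9% of all its reads in the 13 cells. The levels of *Scgb1a1* and *Scgb3a2* overlapped between these sets of 7 and 6 cells, with medians of 268104 and 374880 CPM for *Scgb1a1* and of 21043 and 9716 CPM for *Scgb3a2*.

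The BPI-fold proteins followed *Scgb3a1* rather than *Scgb1a1*. *Bpifb1* was at 672 to 17678 CPM in the 7 cells with *Scgb3a1* at 1000 CPM or more and at 0 to 5.04 CPM in the other 6. *Bpifa1* was at 6249 CPM in column 10 row 30, 11301 CPM in column 14 row 7, 27652 CPM in column 9 row 4, 28644 CPM in column 16 row 40 and 81426 CPM in column 2 row 1. It had 0 reads in column 3 row 7 and 25 reads, or 26.4 CPM, in column 3 row 23. These last cells had *Bpifb1* at 2590 and 10933 CPM, so that the neighbouring genes *Bpifa1* and *Bpifb1*, whose upstream letters are shown above, were not made together in every cell. In the 6 cells with *Scgb3a1* under 1000 CPM, *Bpifa1* was at 0 to 4.03 CPM.

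*Muc5b*, the gel-forming mucin of healthy airways, was at 307 to 8668 CPM in the same 7 cells. Of the other 6 cells, 1 had it at 461 CPM (column 15 row 24) and the rest of them had 0 to 2.57 CPM. *Pigr* was at 371 to 2821 CPM in the 7 cells. In the other 6 it ranged from 0 to 530 CPM, and 2 of these 6 cells had it at 100 CPM or more, so *Pigr* overlapped between the sets. *Muc1* was detected in 13 of 13 cells from 11.98 to 2135 CPM, and it was at 100 CPM or more in 6 of the 7 and in 4 of the 6.

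**Figure D2:**
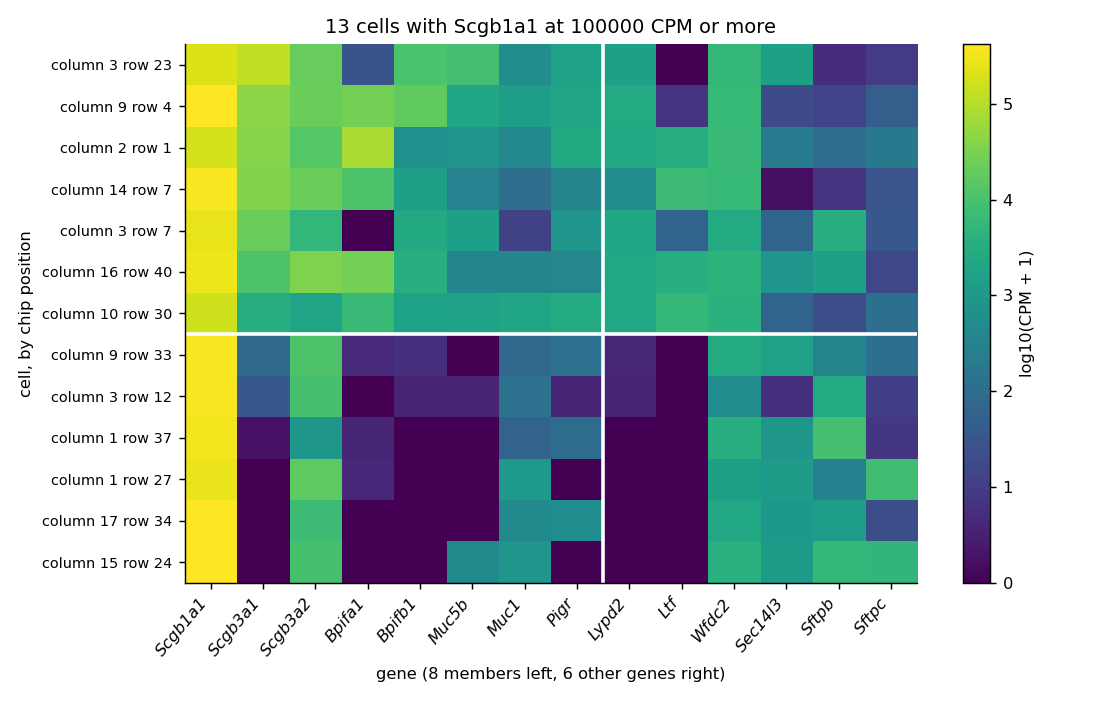
Heat map of log10(CPM + 1) in the 13 cells with *Scgb1a1* at 100000 CPM or more, one row per cell by chip position, with the 8 genes left of the vertical line and 6 other genes right of it. The upper 7 cells have *Scgb3a1* at 1000 CPM or more with *Bpifb1*, *Muc5b*, *Pigr* and *Lypd2*, and the lower 6 have *Sftpb* at 297 CPM or more.

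Other genes parted the 13 cells along the same line. *Lypd2*, a secretory cell gene of the same list of airway genes, was at 522 to 2683 CPM in the 7 cells and at 0 to 3.02 CPM in the 6. *Ltf*, which encodes the iron-binding protein lactoferrin, was at 100 CPM or more in 4 of the 7 (3189 to 7044 CPM) and had no read in the 6. *Sftpb*, which encodes surfactant protein B, ran the other way, with 297 to 9334 CPM in the 6 cells and a median of 21.8 CPM in the 7, of which 2 had 100 CPM or more. *Sftpa1*, which encodes surfactant protein A, was at 100 CPM or more in 5 of the 7 (median 3169 CPM) and in 3 of the 6 (median 176 CPM). *Sec14l3* was at 100 CPM or more in 5 of the 6 and in 3 of the 7. *Scgb1c1*, a further secretoglobin, was at 401 and 960 CPM in 2 of the 6 cells and at 0 in the 7. *Wfdc2*, an airway antiprotease-like gene, was present in all 13, at 520 to 6592 CPM. The sets were drawn after the values had been seen, so these are descriptions, and their genes were not tested.

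Markers of alveolar cells also differed between the sets. *Ager* was at 100 CPM or more in 5 of the 6 cells, up to 607 CPM, and in 1 of the 7, at 106.3 CPM. *Sftpc* was at 7774 CPM in column 1 row 27, just under the type 2 cut, and at 4947 CPM in column 15 row 24. The other 11 cells had it at 7.30 to 190 CPM. With a cut of 4000 CPM, these 2 cells would be type 2 cells. The summed CPM of the 10 type 2 markers in the 13 cells ranged from 17.95 to 16553 and that of the 10 type 1 markers from 43.6 to 1416, and 1 cell (column 9 row 33) had as many ciliated as club markers, 6 of each. The 5 fibroblast markers counted had no read in the 13 cells. The part of other cells' RNA in the 2 sets was not tested. Total reads overlapped between the sets, at 159916 to 1457310 in the 7 and 388378 to 2170760 in the 6. Both kinds of cell stood in column 3, where row 12 had *Scgb3a1* at 33.5 CPM beside 21963 CPM in row 7 and 122643 CPM in row 23, and in column 9, where row 33 had 80.6 CPM beside 43560 CPM in row 4.

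The 13 cells, sorted for the reporter like all other cells, had little *Aqp5*. *tdTomato* reads were found in 13 of 13, at 8.22 to 231 CPM, while *Aqp5* was at 0 to 40.98 CPM with reads in 8 of 13. The *tdTomato* reads were as few as 4, in column 3 row 12, and their background was not tested. In type 1 cells *Aqp5* had a median of 400.1 CPM.

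Across the 16 club-marker cells, chosen without the 8 genes, 9 cells (56.2%, Clopper-Pearson 95% interval 29.9 to 80.2) had at least 3 of the other 7 genes at 100 CPM or more beside *Scgb1a1*. All 7 of the others were at that level in 5 cells: column 2 row 1, column 9 row 4, column 10 row 30, column 14 row 7 and column 16 row 40. Column 10 row 30 had 32.6% of its reads on mitochondrial genes, and the other 4 cells were under the limit. At the other end, 4 club-marker cells were not *Scgb1a1*-high. They had *Scgb1a1* at 782, 806, 7063 and 41995 CPM, and only the last of them had another of the 8 genes at 100 CPM or more, *Scgb3a2* at 6552 CPM. Markers of other airway cells were also high in these 4 cells. Column 4 row 3, column 8 row 14 and column 9 row 24 had 4 of 10 basal markers at 100 CPM or more, beside 5, 5 and 7 club markers. Column 1 row 1 had 4 club and 3 ciliated markers, and 25.2% of its reads were on mitochondrial genes.

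Pairs of genes were related across the 50 rest cells as a description, since the points share a mouse, a chip and their scaling to total reads. On log2(CPM + 10), *Scgb3a1* and *Bpifb1* had the closest relation over the rest of those examined here (Pearson r = 0.96, Spearman rho = 0.89). Within the 13 *Scgb1a1*-high cells r was 0.96 as well (rho = 0.89). *Bpifb1* and *Muc5b* had r = 0.92 in the rest and 0.87 in the 13 cells. *Scgb1a1* and *Scgb3a2* had r = 0.81 and rho = 0.78 in the rest. Within the 13 cells these values were 0.21 and 0.09, so the relation over the rest was not seen among the *Scgb1a1*-high cells. Of the 50 rest cells, 42 had either of these genes at 100 CPM or more and 23 had both. *Scgb1a1* and *Muc1* had r = 0.55 in the rest and -0.22 in the 13 cells. High values were also found over the 27 type 2 cells. There r was 0.80 for *Scgb3a1* with *Bpifb1* and 0.98 for *Bpifb1* with *Muc5b*, and 1 cell had both genes of each pair at 100 CPM or more. For *Scgb1a1* with *Scgb3a2* r was 0.82 and rho 0.78, with 2 such cells, and for *Scgb1a1* with *Muc1* r was -0.07.

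Of 3574 genes at 100 CPM or more in at least 5 of the 50 rest cells, those outside the 8 were ranked. Ranks were by likeness to each of the 8 genes, and some of the closest names recurred while others did not. Only part of them are named here. The 8 genes themselves were left out of this ranking, and some of their own pairs, given above, were closer. *Pon1*, which is also a club marker of the list used here, came first of these for *Scgb1a1* (r = 0.68) and *Scgb3a2* (r = 0.72), with *Reep6* at rank 3 for both (r = 0.61 and 0.62). *Kcne3*, a potassium channel subunit, came first for *Scgb3a1* (r = 0.78), *Bpifa1* (r = 0.70) and *Muc5b* (r = 0.73). *Pglyrp1*, which encodes a peptidoglycan recognition protein, came first for *Bpifb1* (r = 0.74) and *Pigr* (r = 0.65). *Muc1* was most like *Cd36* (r = 0.58), which stood second for *Scgb3a2* (r = 0.63).

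Summed over cells, all 8 genes were higher in the rest than in type 1 cells by a log2 ratio of at least 2, the size used as a call, beside 31.5% of 15255 genes. The ratios lay between 6.66 for *Pigr* (283 against 2.796 CPM) and 7.82 for *Scgb3a1* (7951 against 35.1 CPM), and the median was 7.46 beside 0.46 over all genes tested. Against type 2 cells 7 of the 8 were called higher, beside 39.3% of genes, from 5.51 for *Muc5b* to 9.59 for *Pigr* (8846 against 4 reads, counting interval 8.23 to 11.47). Column 9 row 12 held 94.7% of the type 2 *Muc5b* reads, and type 2 cells had 8.74 CPM with it and 0.464 CPM without it. The *Muc5b* ratio was 9.14 when cells with more mitochondrial reads were left out and 3.36 with means of cells. The calls of 2 genes, *Scgb1a1* and *Scgb3a2*, were lost where column 1 row 27, an *Scgb1a1*-high cell, counted as a type 2 cell. *Muc1* was not called there, at -0.94 (292 CPM in the rest and 561 CPM in type 2 cells).

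These ratios rested on the 13 cells for most of the 8 genes. Without them, 3 of the 8 were called higher in the remaining 37 rest cells than in type 1 cells, beside 32.2% of genes: *Muc1* at 6.85, *Pigr* at 4.26 and *Scgb3a2* at 3.31. Column 6 row 35 held 93.1% of these *Pigr* reads, and without it *Pigr* was at 3.77 CPM in the rest against 2.796 CPM in type 1 cells, too little for a call. Column 2 row 24 held 65.9% of the *Muc1* reads, and without it *Muc1* was at 61.5 CPM against 1.51 CPM. *Muc5b* was called lower at -3.56 (3 against 56 reads, counting interval -5.88 to -1.94), beside 19.7% of genes. *Scgb1a1* was at 1.94 (2336 against 608 CPM), *Bpifa1* at -0.28, *Scgb3a1* at -1.60 and *Bpifb1* at -1.82, none of them called. Against type 2 cells, *Pigr* (7.19) and *Scgb3a2* (2.99) were called higher, beside 40.8% of genes, and *Scgb3a1* (-2.46), *Bpifb1* (-3.27) and *Muc5b* (-5.84) lower, beside 13.7%. The lower calls against type 2 cells coincide with 1 type 2 cell that carried much of their reads, described below.

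Club-marker cells against the other 34 rest cells had 7 of the 8 genes called higher, beside 12.9% of 13775 genes. *Scgb1a1* was at 252821 CPM in club-marker cells and at 21544 CPM in the others, a log2 ratio of 3.55, and 374036 of the 402964 reads of the others were in column 9 row 33. The share of genes called lower was 42.1%, and none of the 8 was. *Scgb3a2* was at 3.87, *Pigr* at 3.27, *Bpifa1* at 8.42, *Scgb3a1* at 10.29 and *Bpifb1* at 10.49. *Muc5b* had 12385 reads against 3, a log2 ratio of 12.59 with a counting interval of 11.05 to 14.87. Column 3 row 23 held 66.3% of those 12385 reads. The interval does not cover the choice of the marker cut. With 5 of 10 club markers required, *Muc5b* was at 5.09, *Bpifb1* at 5.86, *Bpifa1* at 6.32, *Scgb3a1* at 8.29 and *Pigr* at 2.41. *Muc1* was at 1.27, 449 against 186 CPM, and was not called. Column 2 row 24 held 64.6% of the *Muc1* reads of the other rest cells, which were at 68.6 CPM without it. Column 6 row 35 held 82.8% of their *Pigr* reads, with 11.1 CPM left without it in place of 63.5 CPM.

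Related genes outside the 8 were described by the same comparison, against a median of -1.38 over all genes. In it 12.9% of all genes were called higher and 42.1% lower. Of the 3 other genes of the secretoglobin and BPI families, 2 were called higher: *Scgb1c1* with 947 reads against 2, and *Bpifb5* with 656 against 1. *Bpifb5* was at 693 CPM in column 3 row 23 and had no read in the other 12 *Scgb1a1*-high cells. Of 4 other mucins, *Muc20* (416 reads against 0) and *Muc5ac* (248 against 0) were called higher, while *Muc4* (11 against 468) and *Muc16* (0 against 308) were called lower. Each lower call rested on 1 cell, with *Muc4* at 532 CPM in column 3 row 37 and *Muc16* at 243 CPM in column 8 row 21. *Muc5ac*, the mucin of goblet cells, did not pass 130 CPM in any *Scgb1a1*-high cell (column 14 row 7).

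A list of 20 airway secretory and mucus genes had 14 members with enough reads, of which 8 were called higher, beside 12.9% of all genes, and 3 lower, beside 42.1%, and its median log2 ratio was 2.75. *Ltf* had 18039 reads against 12, *Tff2*, a trefoil peptide of mucus, 3530 against 1, *Agr2*, a protein folding enzyme of mucin-making cells, 1311 against 2, and *Dmbt1* 622 against 1. The 3 called lower were *Slpi* (2 reads against 989), *Tspan8* (9 against 1718) and *Galnt12* (1 against 465). Few cells carried most of these reads. *Slpi* was at 1393 CPM in column 2 row 24. *Tspan8* was at 1555 CPM in column 17 row 10 and 294 CPM in column 8 row 21. *Galnt12* was at 498 CPM in column 17 row 10 and 264 CPM in column 16 row 35. *Wfdc2*, *Lypd2* and *Sec14l3* were within the limits of a call. *Agr2* reached 2289 CPM in column 9 row 4 and *Tff2* 2810 CPM in column 3 row 23. 

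Of the 8 genes, *Muc1* was at 100 CPM or more in the most type 2 cells. In type 2 cells it had reads in 25 of 27 (92.6%, Clopper-Pearson 95% interval 75.7 to 99.1), from 0 to 2311 CPM with a median of 528 CPM, and 21 cells were at 100 CPM or more. In type 1 cells it had reads in 20 of 64 (31.2%, 20.2 to 44.1), with a median of 0 and a highest level of 32.3 CPM. Median depth was 306356 reads in type 2 cells and 426602 in type 1 cells, and after thinning each cell to 90000 reads the gene was found in 25 and 7 cells. The log2 ratio of type 2 over type 1 was 8.54 (561 against 1.51 CPM), one of 2 genes of the 8 called higher, beside 16.8% of genes. Only 11 of the 27 type 2 cells were under the mitochondrial limit, against 45 of 64 type 1 cells.

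Among rest cells that were not *Scgb1a1*-high, *Muc1* was high in few cells. Column 2 row 24, with 9 of 10 basal markers, had the highest level of all cells at 3177 CPM. Column 6 row 24 had 1165 CPM and column 7 row 17 had 510 CPM, the latter with *Sftpc* at 6694 CPM. In 14 cells high in ciliated markers *Muc1* had 7 reads in all and did not pass 20.2 CPM.

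*Pigr* and *Scgb3a2* also had single high cells outside the 13. *Pigr* was at 3394 CPM in column 6 row 35, above all 13, a cell with no club, basal or ciliated marker at 100 CPM and 32.3% mitochondrial reads. *Scgb3a2* was at 2508 CPM in column 14 row 13, which had 6 basal and 5 club markers and *Scgb1a1* at 181 CPM. It was at 5607 CPM beside *Scgb1a1* at 15938 CPM in column 10 row 14. In type 2 cells *Pigr* had 4 reads in 27 cells.

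Reads of *Scgb1a1* were found in nearly every cell of the chip. They were present in 59 of 64 type 1 cells (92.2%, Clopper-Pearson 95% interval 82.7 to 97.4), with a median of 172 and a highest level of 8797 CPM. In type 2 cells they were present in 26 of 27, with a median of 39.6 CPM. After thinning to 90000 reads, 52 type 1 and 19 type 2 cells still had a read. These levels are below the lowest *Scgb1a1*-high cell, and the share of cells with a read is not taken as a share of cells expressing the gene.

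**Figure D3:**
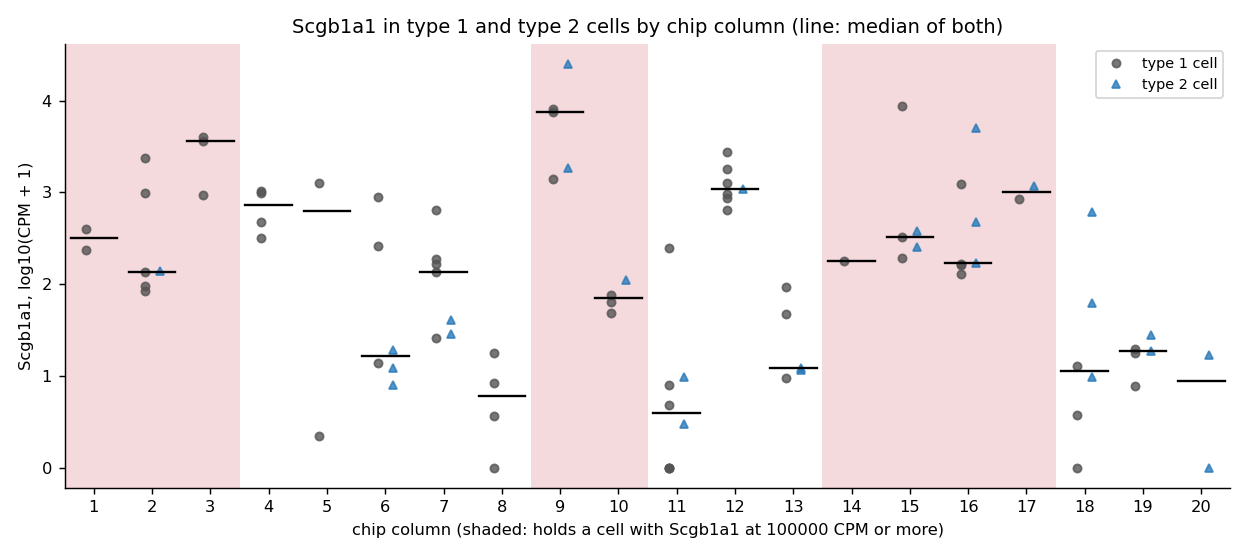
*Scgb1a1* as log10(CPM + 1) in each type 1 cell (circles) and type 2 cell (triangles) by chip column, with a line at the median of both and shading for the 9 columns that hold a cell with *Scgb1a1* at 100000 CPM or more. In the shaded columns no cell is under 47.02 CPM, while unshaded columns run from 0 CPM up to 2767 CPM in column 12.

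The level in alveolar cells differed between chip columns. In the 9 columns that hold an *Scgb1a1*-high cell, 25 type 1 cells had 47.02 to 8797 CPM with a median of 323 CPM, and all 25 had reads. In the other 10 columns with type 1 cells, 39 such cells had 0 to 2767 CPM with a median of 46.7 CPM. In type 2 cells the medians were 428 CPM (110.9 to 24919) in 10 cells of 6 columns with an *Scgb1a1*-high cell and 15.7 CPM (0 to 1074) in 17 cells of 8 columns without. The ranges overlapped in both classes, and cells of a column are not independent. By chip row there was no such order, with type 1 medians of 163 CPM in rows with an *Scgb1a1*-high cell and 189 CPM in rows without.

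With club-marker cells in place of *Scgb1a1*-high cells, type 1 medians were 314 CPM in 33 cells of 11 columns and 46.7 CPM in 31 cells of 8 columns, a ratio of 6.72. Single columns decided the size of this ratio, which was 2.35 without column 11 and 18.8 without column 12. Column 9 had the highest type 1 median, 7582 CPM, followed by column 3 with 3590 CPM, and these columns hold 2 and 3 *Scgb1a1*-high cells. Column 12 came next with 1102 CPM and holds none: its 6 type 1 cells had 634 to 2767 CPM and its type 2 cell 1074 CPM. Columns 4 (731 CPM), 5 (628 CPM) and 6 (256 CPM) also hold none, and their type 1 medians were above those of columns 2 (133.4 CPM), 10 (62.3 CPM), 14 (177 CPM) and 16 (163 CPM), which hold 1 each. Column 11 (1.94 CPM), column 18 (2.73 CPM) and column 8 (5.05 CPM) had the lowest type 1 medians and no *Scgb1a1*-high cell, although column 8 holds a club-marker cell. Over 19 columns the reads of *Scgb1a1*-high cells and the type 1 median had a Spearman rho of 0.46, given as a description.

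Other secretory genes in alveolar cells also differed between columns. In the 6 columns with a cell of *Scgb3a1* at 1000 CPM or more, 26 type 1 and type 2 cells had *Scgb3a1* reads in 23 and 10 CPM or more in 18. In the 3 columns with *Scgb1a1*-high cells but none of that kind, 3 of 9 had reads and 1 had 10 CPM or more, although *Scgb1a1* was as high there (median 379 CPM against 327 CPM). In the 11 columns with no *Scgb1a1*-high cell, 13 of 56 had reads and 4 had 10 CPM or more. Among these columns, column 4 had 58.4 *Scgb3a1*, 176.9 *Scgb3a2* and 16.4 *Bpifb1* reads per 1000 *Scgb1a1* reads in its alveolar cells. All *Scgb3a1* reads of the alveolar cells of column 18 were in row 29, a type 2 cell with 173 CPM. *Bpifa1* had 10 CPM or more in 17 of the 26 cells, 2 of the 9 and 0 of the 56 cells. *Muc1* did not follow this order, with 8 of 26, 4 of 9 and 16 of 56 cells at 10 CPM or more.

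The make-up of these reads resembled that of the *Scgb1a1*-high cells of the same column in several columns. For every 1000 *Scgb1a1* reads, column 2 had 466 *Bpifa1* reads in its *Scgb1a1*-high cell and 416 in its alveolar cells, and 228 and 198 *Scgb3a1* reads. Column 16 had 95.3 and 97.1 *Bpifa1* reads and 38.7 and 35.5 *Scgb3a1* reads. Column 3, whose high cells made almost no *Bpifa1* (0.0407), had 0 *Bpifa1* reads in its alveolar cells beside 5728 *Scgb1a1* reads, and 225 and 91.1 *Scgb3a1* reads. Columns 15 and 17, with no *Scgb3a1* read in the *Scgb1a1*-high cell, had 1.70 and 1.49 in the alveolar cells. In column 2, 1 cell (row 6) gave 1406 of the 1867 *Scgb1a1* reads of the alveolar cells. In column 16, 1 type 2 cell (row 6) gave 876 of the 1463 *Scgb1a1*, 96 of the 142 *Bpifa1* and 31 of the 52 *Scgb3a1* reads.

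**Figure D4:**
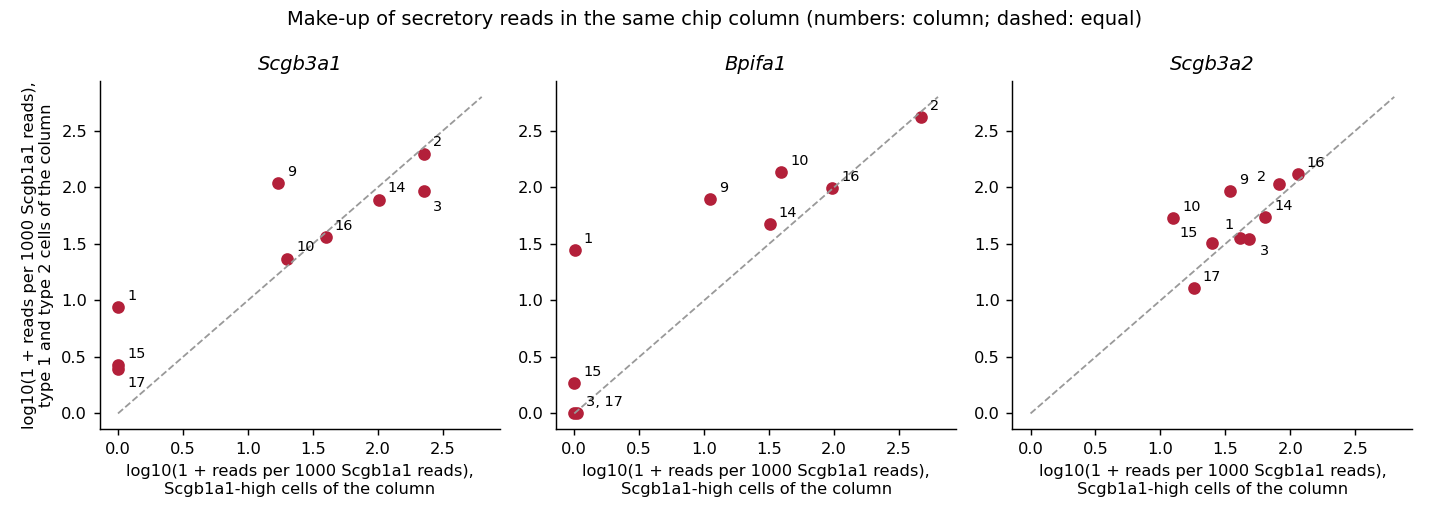
Reads of *Scgb3a1*, *Bpifa1* and *Scgb3a2* per 1000 *Scgb1a1* reads, as log10(1 + value), in the *Scgb1a1*-high cells (horizontal axis) and in the type 1 and type 2 cells (vertical axis) of the same chip column; each point is 1 of 9 columns with its number, and the dashed line marks equal values. Columns 2, 14 and 16 lie near the line in all 3 panels, column 3 does for *Bpifa1* and *Scgb3a2*, and columns 1 and 9 lie above it for *Scgb3a1* and *Bpifa1*.

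Columns 1, 9 and 10 departed from this. Column 1 had 0.0105 *Bpifa1* reads per 1000 in its *Scgb1a1*-high cells and 26.8 in alveolar cells, but the latter were 7 reads beside 261 *Scgb1a1* reads. Column 10 had 37.98 and 134.3, the latter from 18 *Bpifa1* reads. Column 9 had 15.98 *Scgb3a1* reads per 1000 in its 2 *Scgb1a1*-high cells together and 107.6 in the alveolar cells, where *Scgb1a1*-high row 4 alone had 104.1 and row 33 alone 0.214. Across the 9 columns, Spearman rho between the 2 sides was 0.89 for *Bpifa1*, 0.83 for *Scgb3a1*, 0.74 for *Bpifb1*, 0.68 for *Scgb3a2*, 0.65 for *Muc5b*, 0.47 for *Pigr* and 0.08 for *Muc1*, given as a description.

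Within a column, alveolar cells were not alike. In column 9, row 3 had 51.4 *Scgb3a1* and 0 *Bpifa1* reads per 1000 *Scgb1a1* reads, row 23 had 32.5 with 203 *Bpifa1* reads beside 1015 of *Scgb1a1*, and row 32 had 288 and 3.15. Column 9 row 12, a type 2 cell, had the highest levels of all alveolar cells, with *Scgb1a1* at 24919, *Scgb3a1* at 3176, *Scgb3a2* at 2849, *Bpifa1* at 2020, *Bpifb1* at 1019 and *Muc5b* at 819 CPM. It had 9 type 2 and 5 club markers at 100 CPM or more, 109877 reads in all and 28.9% of them on mitochondrial genes. This cell held 94.7% of the *Muc5b* reads and 87.5% of the *Bpifb1* reads of type 2 cells, so that the call of *Muc5b* as higher in type 2 than in type 1 cells (log2 ratio 2.28) rested on it. *Pigr* was called lower in that comparison (-2.93, 4 against 87 reads), beside 35% of genes, and 47.1% of those 87 reads were in column 2 row 6. The source of the secretory reads in alveolar cells was not tested.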

How the data were processed

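Unnormalised read counts of 17136 genes in 141 cells were analysed. The authors trimmed reads with Trim Galore, checked them with FastQC, aligned them to GRCm38 with HISAT2 and deposited counts per gene made with featureCounts; versions, annotation release and strand setting are not given in the sources used here. Per the labels, captured sites were checked under a microscope, and no doublet caller was run. No molecular identifiers are stated, so counts are reads after PCR. Because reads may lie near one end of a transcript, CPM were not compared between genes.

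CPM used the total reads of a cell, or of summed cells for ratios between classes. Genes with at least 10 reads over both classes were compared, a log2 ratio of 2 or more was called, and fewer than 3 reads in a class were set to a floor of 3. Thinning drew 90000 reads per cell. Intervals at 95% are Clopper-Pearson for numbers of cells. For read ratios they are exact binomial, given the summed reads of both classes. They cover counting error only, of reads or of cells. With 1 mouse, no test was run. The genes named were the 8 genes, the largest ratios of 3 gene lists, and some of the 3 genes most alike to each. Single cells and the other genes of the *Scgb1a1*-high cells were chosen after their values were seen. The 8 genes and all lists were chosen with earlier results of these data known. RefSeq promoter windows were found for 5 of the 8 genes and not for *Scgb1a1*, *Scgb3a2* and *Muc5b*. Scripts ran in Python 3.11.15 (pandas 2.3.3, numpy 2.4.6, matplotlib 3.10.9, scipy 1.17.1), and the ratios were tested on simulated data. Alternatives changed the mitochondrial limit, class cuts, library size, depth, marker cuts, averaging and chip axis.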

Additional observations from a re-analysis of the deposited data

How the results depend on the processing

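No paired analysis was possible because all cells belong to 1 group of 1 mouse. The share of rest cells with *Scgb1a1* at 10000 CPM or more, the share of club-marker cells with 3 further genes and the 3 counts of genes called stayed within their limits under the alternatives listed with the methods; the count against type 2 cells was 5 in place of 7 with a *Sftpc* cut of 4000 CPM or other library sizes, where 1 or more *Scgb1a1*-high cells became type 2 cells. Leaving out the 13 *Scgb1a1*-high cells, an alternative chosen after seeing the data, gave 3 genes over type 1 and 2 over type 2 cells. It turned *Scgb3a1* (-1.60), *Bpifa1* (-0.28), *Bpifb1* (-1.82) and *Muc5b* (-3.56) below type 1 cells, and the same genes (-2.46, -0.15, -3.27 and -5.84) below type 2 cells. Single genes also moved. Against type 2 cells, without *Scgb1a1* and *Sftpc* reads in the library size, *Scgb1a1* was at 0.62 in place of 7.497 and *Scgb3a2* at 0.48 in place of 6.91, and *Muc5b* (5.51) ran from 3.36 with means of cells to 9.14 under the mitochondrial limit. The ratio of type 1 *Scgb1a1* medians between columns with and without a club-marker cell was 6.72. It was 2.99 under the mitochondrial limit, 2.44 with a *Sftpc* cut of 4000 CPM and 2.44 without *Scgb1a1* and *Sftpc* reads, where under the last 2 settings column 15 no longer held a club-marker cell. It was 36 after thinning, 21.7 with secretory cells taken at 10000 CPM of *Scgb1a1*, 3.43 with means and 27.2 in type 2 cells. Chip rows in place of columns gave 1.19. Leaving out single columns gave 2.35 to 18.8. With *Bpifa1*, *Scgb3a1* or *Scgb3a2* in place of *Scgb1a1* the median without a club-marker cell was 0 and no ratio could be formed. Without the filter of 10 reads, 29.3%, 35.5% and 11.3% of genes were higher in the 3 comparisons. Depth limits the read ratios in alveolar cells of columns 1, 10 and 14, which had 261 *Scgb1a1* reads or fewer. Over the rest, r of *Scgb3a1* with *Bpifb1* was 0.97 and of *Bpifb1* with *Muc5b* 0.91 under the mitochondrial limit, and over all 50 rest cells Spearman rho of the latter was 0.59.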
